A study of Mus musculus with 12 samples.

Results

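The heat shock and endoplasmic reticulum (ER) stress genes described here are 38 genes of protein folding and of the stress response to misfolded protein, chosen by name from a table of 55421 genes of mouse renal cortex. All 38 passed the filter on low counts, as did 18461 genes in all. They fall into 7 classes, namely 8 cytosolic heat shock genes, 3 mitochondrial chaperones, 14 ER chaperones and folding enzymes, 2 genes of ER-associated degradation, 1 collagen chaperone, 6 stress sensors and transcription factors, and 4 targets of ATF4 and CHOP. RNA was sequenced from 12 mice in 4 groups of 3. Wild-type controls (WT-C) and ANRIL knockout controls (KO-C) received citrate buffer alone, and all mice were male. Wild-type diabetic (WT-D) and ANRIL knockout diabetic (KO-D) mice received streptozotocin, a toxin of insulin-producing beta cells, at 50 mg/kg body weight by intraperitoneal injection on 5 consecutive days, and were followed for 2 months. The labels give an age of 8 weeks for every mouse and 1 strain name, 129S6/SvEvTac-Del[4C4-C5]1Lap/Mmcd, for all 12, the wild-type mice included. The knockout is a germline deletion of a noncoding interval, carried in every cell, so its effects need not be confined to kidney. ANRIL is a long noncoding RNA of the Ink4 locus.

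Cells meet an excess of unfolded protein in the cytosol with heat shock factor, which raises chaperones such as HSP70 and HSP27. Unfolded protein in the ER is sensed by PERK, IRE1 and ATF6 (genes Eif2ak3, Ern1 and Atf6). IRE1 and ATF6 raise ER chaperones, partly through XBP1, whereas PERK slows translation and favours translation of ATF4, which raises CHOP (Ddit3), Trib3, Chac1 and Asns. Other kinases that sense amino acid shortage or viral RNA reach ATF4 as well. Kidney tubule cells are rich in ER and mitochondria, and both responses are studied in diabetic kidney.

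Levels below are counts per 1000000 counted reads (CPM) after scaling between libraries by TMM, a factor per library that sets most genes equal, and the 3 values of a group are in the order of replicates 1, 2 and 3. A log2 change is the difference of group means of log2(CPM + 0.1) ± its standard error, so that it understates the change of low genes. A gene was called where limma's p, adjusted by Benjamini-Hochberg over all 18461 genes, was under 0.05. The libraries held 23781928 to 67336174 counted reads. In bulk tissue, fewer cells of a type and less RNA per cell cannot be told apart. The markers of proximal tubule summed to 1500.3 CPM or more in every library, and those of inner medulla to at most 179.9 CPM. Reads of the noncoding genes of the Ink4 locus (Gm12606, Gm12609, Gm12610) were 6 or fewer in every library, so that they do not check the genotype labels. Cdkn2b had 70, 39 and 16 reads in WT-C and 101, 11 and 1 in KO-C. It had 165, 97 and 50 reads in WT-D and 2, 30 and 17 in KO-D.

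One library stood apart. KO-C 3 had the highest level of all 12 libraries for 23 of the 38 genes and for 12 of the 14 ER chaperones and folding enzymes, whereas it was highest for 14.4% of all tested genes. Its ER folding genes were 1.28 to 2.74 times the mean of KO-C 1 and KO-C 2, with a median of 1.90, and the median over all tested genes was 0.979. KO-D 1 was highest for 6 of the 38, of which 4 are cytosolic heat shock genes. Summed markers of B and plasma cells, which are rich in ER, were 42.6, 48.1 and 137 CPM in KO-C, and 47.1 to 292 CPM in WT-C. The 2 inner medulla markers summed to 179.9, 101 and 11.1 CPM in KO-C and to 4.96, 115 and 50.3 CPM in KO-D, lowest in KO-C 3 and KO-D 1. Proximal tubule markers summed to 4408, 4677 and 5983 CPM in KO-C, and KO-C 3 was the highest of all 12. KO-D 1 had the highest distal tubule sum of all 12 (2349 CPM) and the lowest macrophage sum (40.7 CPM). Summed immediate early genes, which respond to handling, were 108 CPM in KO-C 3 against 70.8 at the lowest in KO-C. The part of these markers in the levels of KO-C 3 and KO-D 1 was not tested. Calls that were lost without KO-C 3 or KO-D 1 are given beside the results.

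**Figure D1:**
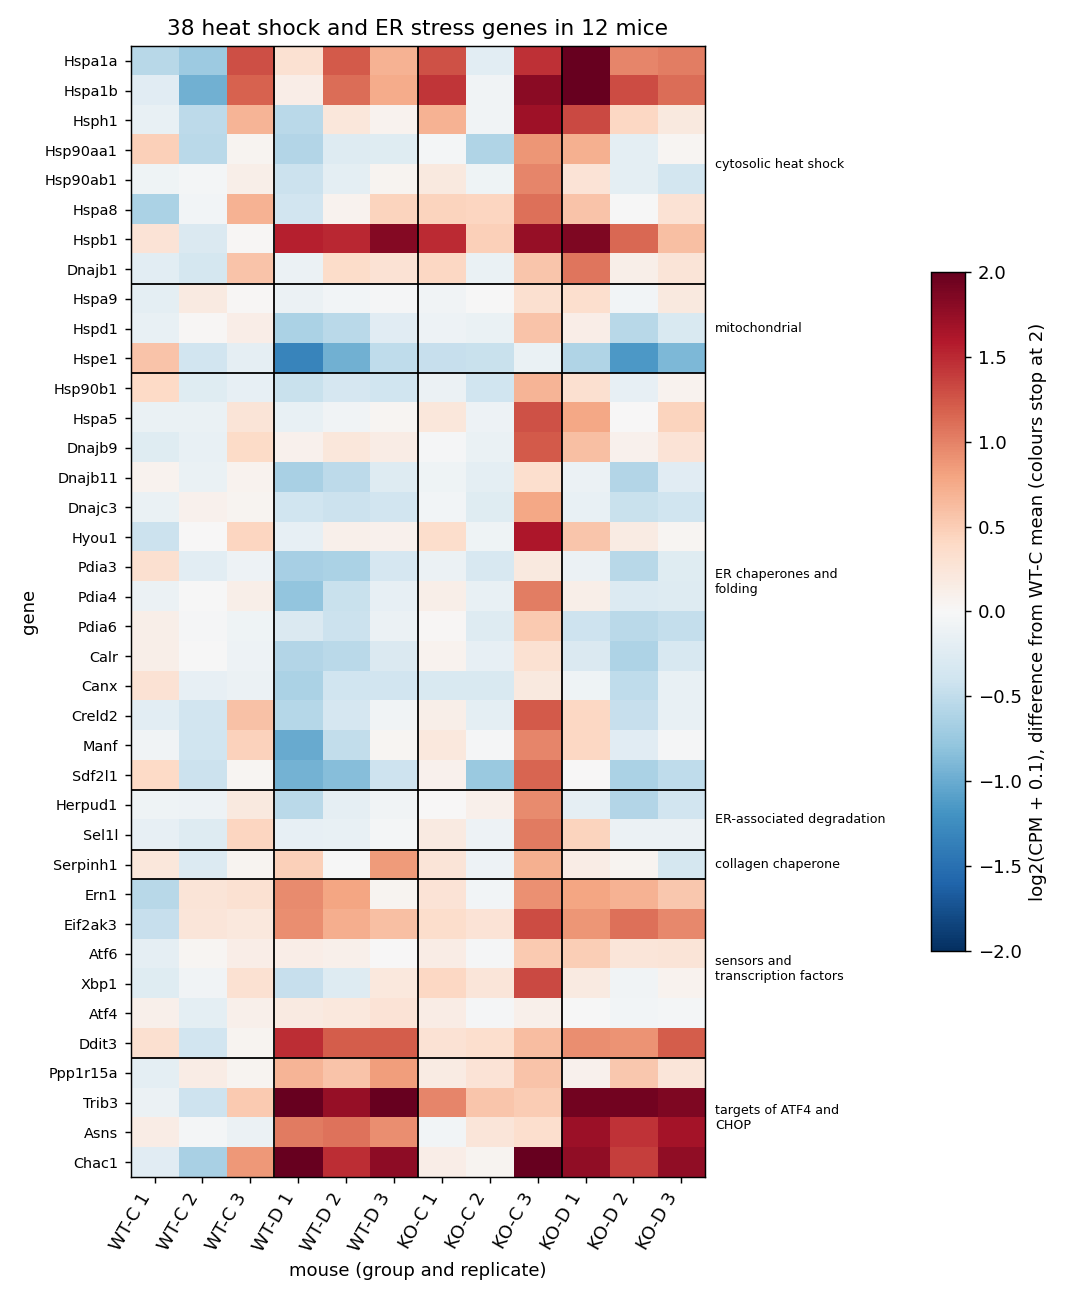
Each row is a gene and each column a mouse, and colour gives log2(CPM + 0.1) as a difference from the WT-C mean of that gene. KO-C 3 is red through the ER folding rows, and the bottom rows Trib3, Asns and Chac1 are red in all 6 diabetic mice. Ppp1r15a, above them, is near the WT-C mean in KO-D 1 (0.09), and Chac1 is also red in KO-C 3 (2.05).

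Promoters were read to show which letters these genes share beside their response. RefSeq promoters (GRCm38.p6, 250 bases before the start site and 50 from it on) were found for 31 of the 38 genes. The ATF4 element TGATGNAA, searched on both strands, was present in 4 of the 31 and in 4.51% of all genes with a promoter. Those 4 are printed because Asns, Trib3 and Chac1 had the largest increases of the 38 genes in the effect of diabetes averaged over both genotypes, and Herpud1 was called lower in it. The element is in capitals, and where it lies on the other strand its reverse complement is printed.
Asns: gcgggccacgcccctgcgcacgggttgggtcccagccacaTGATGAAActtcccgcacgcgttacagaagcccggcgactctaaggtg
Trib3: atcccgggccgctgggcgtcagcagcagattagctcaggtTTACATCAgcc
Chac1: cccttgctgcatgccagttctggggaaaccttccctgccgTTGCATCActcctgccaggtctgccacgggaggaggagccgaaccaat
Herpud1: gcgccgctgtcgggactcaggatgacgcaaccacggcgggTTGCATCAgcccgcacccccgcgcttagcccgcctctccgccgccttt
These windows lie at chr6:7693185-7693272 (minus strand), chr2:152344036-152344086 (minus), chr2:119351009-119351096 (plus) and chr8:94386277-94386364 (plus). The Asns element spans bases -23 to -16 and that of Trib3 bases 14 to 21, counted from 0 at the start site. A match describes letters only and says nothing of binding.

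The ER stress element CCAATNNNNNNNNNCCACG was present in 7 of the 31 promoters, all of them of ER folding genes (Hsp90b1, Hspa5, Dnajc3, Pdia6, Calr, Canx and Creld2), and in 0.137% of all genes. Pdia6 and Calr, both called lower in diabetic mice, are set beside Hspa5 and Hsp90b1, which were not called, to show that the element was present in both kinds. Hsp90b1 holds it 2 times.
Pdia6: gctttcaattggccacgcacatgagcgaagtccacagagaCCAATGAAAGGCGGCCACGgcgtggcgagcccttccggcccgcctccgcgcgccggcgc
Calr: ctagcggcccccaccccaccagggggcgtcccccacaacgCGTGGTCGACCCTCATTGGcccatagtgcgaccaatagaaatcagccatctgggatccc
Hspa5: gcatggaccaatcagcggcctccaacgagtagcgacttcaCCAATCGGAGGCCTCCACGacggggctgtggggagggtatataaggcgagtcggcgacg
Hsp90b1: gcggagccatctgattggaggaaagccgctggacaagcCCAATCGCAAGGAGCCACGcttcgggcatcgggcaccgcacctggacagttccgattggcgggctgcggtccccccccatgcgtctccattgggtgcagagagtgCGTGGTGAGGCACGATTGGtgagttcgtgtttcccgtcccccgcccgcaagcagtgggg
They lie at chr12:17266451-17266549 (plus), chr8:84847035-84847133 (minus), chr2:34771985-34772083 (plus) and chr10:86705493-86705694 (minus). The related element TGACGTGG was in 0 of the 31 and in 0.714% of all genes.

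A pair of inverted repeat units of the heat shock element (TTCNNGAA or GAANNTTC, whose matches can overlap each other) was present in 8 of the 31 promoters and in 17.0% of all genes. Shown are the HSP70 pair, the small heat shock gene Hspb1 and the mitochondrial Hspe1.
Hspa1a: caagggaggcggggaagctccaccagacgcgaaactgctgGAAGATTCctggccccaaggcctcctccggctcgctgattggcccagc
Hspa1b: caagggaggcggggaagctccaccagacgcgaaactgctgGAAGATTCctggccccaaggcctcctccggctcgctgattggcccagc
Hspb1: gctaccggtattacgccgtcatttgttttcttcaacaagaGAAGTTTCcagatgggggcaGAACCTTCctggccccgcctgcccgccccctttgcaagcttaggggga
Hspe1: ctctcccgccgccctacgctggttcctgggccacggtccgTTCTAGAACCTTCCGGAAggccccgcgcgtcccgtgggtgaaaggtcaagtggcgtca
They lie at chr17:34972213-34972300 (minus), chr17:34959295-34959382 (minus), chr5:135887762-135887869 (plus) and chr1:55088019-55088116 (plus). The Hspa1a and Hspa1b windows are letter for letter the same. Hspe1 and Hspd1 overlap by 112 bases on opposite strands, and matches also lie at bases -144 to -127 of an Hspd1 start site. Whether these are the bases printed for Hspe1, read from the other strand, was not tested.

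The targets of ATF4 and CHOP were the class that moved most with diabetes. Averaged over both genotypes, 4 of 4 were called higher, with a median log2 change of 1.28 against 0.01 over all tested genes. With RLE scaling 3 of 4 were, Ppp1r15a being lost (adjusted p = 0.0503). For the averaged effect 7 of the 38 genes were called higher and 8 lower, beside 21.9% and 21.6% of all tested genes. The shares of the 38, 18.4% and 21.1%, lie near that background, and the classes went in different directions. Without KO-D 2 there were 9 calls in place of 15.

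Asns (chr6:7675169-7693254), asparagine synthetase, had 9.44, 8.24 and 7.85 CPM in WT-C and 17.5, 18.2 and 16.3 CPM in WT-D. It had 8.16, 10.03 and 10.8 CPM in KO-C and 28.1, 23.2 and 27.0 CPM in KO-D. The 6 diabetic mice lay above the 6 controls, and KO-D lay above WT-D without overlap. The log2 change was 1.02 ± 0.15 in wild type (adjusted p = 7.8e-04) and 1.43 ± 0.15 in knockout mice (adjusted p = 6.2e-05).

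Trib3 (chr2:152337422-152344032), a pseudokinase that dampens AKT and ATF4 signalling, had 0.399, 0.308 and 0.679 CPM in WT-C and 3.35, 1.72 and 3.37 CPM in WT-D. It had 0.968, 0.698 and 0.666 CPM in KO-C and 1.96, 1.97 and 1.87 CPM in KO-D. Every diabetic mouse lay above every control, and the WT-C libraries held only 11 to 20 reads of it. The log2 change was 2.37 ± 0.31 in wild type (adjusted p = 4.5e-04) and 1.23 ± 0.31 in knockout (adjusted p = 0.00982). With a pseudocount of 1 these were 1.36 and 0.73, and with no scaling 2.69 and 1.55, all called.

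Chac1 (chr2:119351229-119354381), which degrades glutathione, had 0.299, 0.196 and 0.747 CPM in WT-C and 1.74, 1.19 and 1.51 CPM in WT-D. It had 0.411, 0.381 and 1.83 CPM in KO-C and 1.48, 1.12 and 1.49 CPM in KO-D. KO-C 3 was the highest of all 12, and without it the other 5 controls lay below the 6 diabetic mice. The log2 change was 1.75 ± 0.50 in wild type (adjusted p = 0.0241), a call lost without WT-C 1, WT-C 2 or WT-D 1 (adjusted p up to 0.0977) and with no filter on low values (adjusted p = 0.0581). It was 0.83 with a pseudocount of 1 and 2.06 with no scaling. In knockout it was 0.90 ± 0.50 (adjusted p = 0.187), and 1.55 (adjusted p = 0.0154) without KO-C 3.

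Ppp1r15a (chr7:45522916-45526268) encodes GADD34, which brings a phosphatase to eIF2-alpha and restores translation. It had 7.71, 9.75 and 9.17 CPM in WT-C and 14.3, 13.1 and 15.9 CPM in WT-D. It had 9.86, 10.7 and 13.2 CPM in KO-C and 9.38, 12.8 and 10.5 CPM in KO-D. WT-D lay above WT-C without overlap (log2 change 0.70 ± 0.17, adjusted p = 0.0128), while the knockout groups overlapped (-0.05 ± 0.17, adjusted p = 0.864). The wild-type call was lost without WT-C 1 (adjusted p = 0.0512). The averaged call (0.32, adjusted p = 0.0437) held in 3 of 12 fits that each left out 1 library, and was lost with RLE scaling and with no filter on low values (adjusted p = 0.0617).

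**Figure D2:**
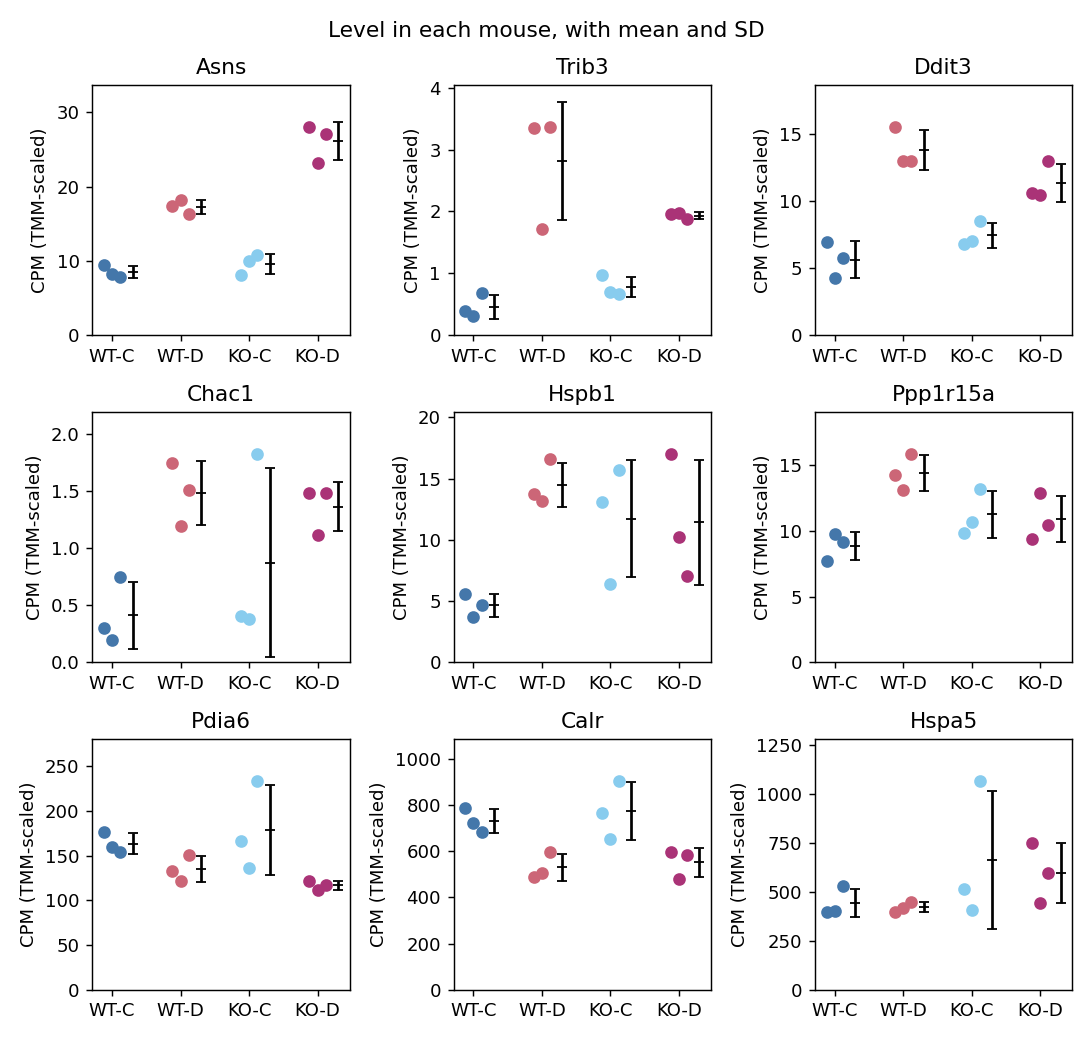
Points give the TMM-scaled CPM of each mouse for 9 genes, and the bar beside each group gives its mean and SD (n = 3). The 6 diabetic mice lie above the 6 controls for Asns, Trib3 and Ddit3, and below them for Calr.

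Among the sensors and transcription factors, Ddit3 and Eif2ak3 were called higher in the averaged effect and 4 of 6 were not called. Ddit3 (chr10:127290774-127296288), the transcription factor CHOP, had 6.94, 4.23 and 5.74 CPM in WT-C and 15.5, 12.9 and 13.0 CPM in WT-D. It had 6.78, 7.01 and 8.52 CPM in KO-C and 10.6, 10.4 and 13.0 CPM in KO-D. The diabetic mice lay above all controls, with a log2 change of 1.30 ± 0.19 in wild type (adjusted p = 8.4e-04) and 0.60 ± 0.19 in knockout (adjusted p = 0.0293). The libraries carry no strand, and 68 bases of Ddit3 overlap Mars on the other strand. A second row of the table with this name overlaps the gene and had 0 reads in every library.

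Eif2ak3 (chr6:70844515-70905245), the kinase PERK, had 9.80, 16.1 and 15.8 CPM in WT-C and 25.8, 22.5 and 20.6 CPM in WT-D. It had 17.3, 16.4 and 33.5 CPM in KO-C and 25.1, 29.2 and 26.6 CPM in KO-D. KO-C 3 was again the highest library. The log2 change in wild type was 0.75 ± 0.25 (adjusted p = 0.0499), and of 12 fits that each left out 1 library this call held in 1. In knockout it was 0.34 ± 0.25 (adjusted p = 0.331), and 0.66 (adjusted p = 0.0350) without KO-C 3.

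Atf4, translated more when eIF2-alpha is phosphorylated, had the highest level per kilobase of exon in its class (38.3 CPM per kb). Its mRNA had 91.7, 74.6 and 92.4 CPM in WT-C mice, 97.5, 99.7 and 103 in WT-D mice, 95.0, 84.7 and 92.2 in KO-C mice, and 85.7, 82.8 and 83.4 in KO-D mice. WT-D lay above WT-C, the knockout groups overlapped, and Atf4 was not called in any comparison. On CPM with no scaling it was called higher in WT-D against WT-C (0.61, adjusted p = 0.0088), where the median of all tested genes was itself 0.42. Xbp1, the transcription factor spliced by IRE1, had 107 ± 21.6 CPM in WT-C mice, 96.1 ± 24.1 in WT-D mice, 177 ± 76.6 in KO-C mice and 111 ± 9.29 in KO-D mice (mean ± SD, n = 3). Gene counts do not separate its spliced form. Xbp1 was not called by limma. With the replicate number as a block it was called lower in KO-D against KO-C and in the averaged effect. Ern1 and Atf6 ranged over the 12 mice from 6.05 to 17.3 and from 29.0 to 47.3 CPM, and neither was called.

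Of the 14 ER chaperones and folding enzymes, 6 were called lower in the averaged effect (Dnajb11, Dnajc3, Pdia3, Pdia4, Pdia6 and Calr), 0 higher and 8 were not called, where 21.6% of all tested genes were called lower. The median log2 change was -0.40, and 13 of 14 changes lay below 0. Without KO-C 3, 4 of 14 were called lower with a median of -0.28. In KO-D against KO-C 2 of 14 were called lower with a median of -0.35, and without KO-C 3 there were 0 with a median of -0.05. The mean of the 14 log2 levels, relative to the WT-C mean of each gene, was 0.04, -0.24 and 0.82 in KO-C and 0.15, -0.34 and -0.14 in KO-D, so that the knockout groups overlapped. It was 0.03, -0.16 and 0.13 in WT-C and -0.51, -0.37 and -0.18 in WT-D, and those groups did not overlap. On CPM with no scaling between libraries 0 of 14 were called lower in the averaged effect, with a median of -0.03, where the median of all tested genes was itself 0.36.

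Calr (chr8:84841850-84846934), a calcium-binding lectin chaperone, had the highest level per kilobase of exon in this class (225 CPM per kb). It had 788, 723 and 682 CPM in WT-C and 488, 505 and 597 CPM in WT-D. It had 765, 652 and 904 CPM in KO-C and 595, 478 and 582 CPM in KO-D. All 6 diabetic mice lay below all 6 controls, with an averaged log2 change of -0.47 ± 0.12 (adjusted p = 0.00695). On CPM with no scaling between libraries they overlapped, with 567 to 664 in WT-C and 613 to 708 in KO-D. The averaged log2 change was then -0.11 (adjusted p = 0.417). The knockout call (-0.48, adjusted p = 0.0485) held in 2 of 12 fits that each left out 1 library, and was lost without KO-C 3 (adjusted p = 0.159) and without KO-D 1 (adjusted p = 0.0595).

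Pdia6 (chr12:17266545-17284770), a protein disulfide isomerase, had 177, 159.5 and 154 CPM in WT-C and 133, 121 and 150.3 CPM in WT-D. It had 166, 136 and 233 CPM in KO-C and 122, 112 and 117 CPM in KO-D. In each genotype the diabetic mice lay below their controls. The log2 change was -0.28 ± 0.17 in wild type (adjusted p = 0.26) and -0.57 ± 0.17 in knockout (adjusted p = 0.0243), and -0.37 (adjusted p = 0.0916) in knockout without KO-C 3. On CPM with no scaling the groups overlapped in both genotypes. The log2 change was then 0.10 in wild type (adjusted p = 0.679) and -0.23 in knockout (adjusted p = 0.328).

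Pdia3, which folds glycoproteins with calreticulin and calnexin, had 738, 510.1 and 548 CPM in WT-C mice, 373, 380.3 and 466 in WT-D mice, 546, 474 and 677 in KO-C mice and 545, 402 and 497 in KO-D mice. Pdia4, another disulfide isomerase, had 86.5, 92.8 and 102 CPM in WT-C mice, 54.0, 68.7 and 83.6 in WT-D mice, 101, 84.1 and 189.9 in KO-C mice and 101, 77.8 and 77.9 in KO-D mice. WT-D lay below WT-C for both genes, and the knockout groups overlapped. Their averaged log2 changes were -0.39 ± 0.14 (adjusted p = 0.0375) and -0.47 ± 0.18 (adjusted p = 0.0498), and both calls were lost without KO-C 3. Both were also lost on CPM with no scaling (adjusted p = 0.869 and 0.640), where the wild-type groups overlapped for Pdia4.

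Dnajb11, a co-chaperone of BiP, had 119, 103 and 118 CPM in WT-C mice, 72.1, 78.4 and 94.2 in WT-D mice, 106, 98.6 and 143 in KO-C mice and 105, 74.9 and 96.6 in KO-D mice. Dnajc3, a co-chaperone that also restrains PERK, had 126, 145 and 142 CPM in WT-C mice, 105, 102 and 106 in WT-D mice, 132, 117 and 234 in KO-C mice and 125, 101 and 105 in KO-D mice. The wild-type groups did not overlap for either gene and the knockout groups did. Neither gene was called by limma in WT-D against WT-C (adjusted p = 0.0638 and 0.177). The averaged log2 changes were -0.40 ± 0.12 (adjusted p = 0.0176) and -0.44 ± 0.15 (adjusted p = 0.0275). On CPM with no scaling the wild-type groups overlapped for both genes. The averaged log2 changes were then -0.04 (adjusted p = 0.785) and -0.08 (adjusted p = 0.710).

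The remaining 8 genes of the class were not called by limma in any comparison. Of these, Sdf2l1 was called lower in the averaged effect by edgeR, by DESeq2 and with the replicate number as a block, and Canx in WT-D against WT-C by DESeq2 (adjusted p = 0.0350). Hspa5, the ER HSP70 BiP and the usual marker of the unfolded protein response, had 399, 402 and 528 CPM in WT-C and 397, 419.7 and 449 CPM in WT-D. It had 514, 407 and 1066 CPM in KO-C and 749, 441 and 596 CPM in KO-D. The groups overlapped, with a log2 change of -0.06 ± 0.30 in either genotype. The averaged log2 changes of Hsp90b1, Hyou1, Canx, Creld2, Manf and Sdf2l1 lay between -0.64 and -0.18, and that of Dnajb9 was 0.06.

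Of the ER-associated degradation genes, Herpud1 (chr8:94386438-94395377), an ER membrane protein of the degradation complex, had 247, 244 and 299 CPM in WT-C and 181, 232 and 251 CPM in WT-D. It had 263, 281 and 508 CPM in KO-C and 231, 174 and 200.2 CPM in KO-D. KO-D lay below KO-C without overlap, and the wild-type groups overlapped. The log2 change in knockout was -0.74 ± 0.23 (adjusted p = 0.0260), and -0.45 (adjusted p = 0.0947) without KO-C 3. Sel1l, an adaptor of the same complex, ranged from 64.3 to 158 CPM and was not called.

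**Figure D3:**
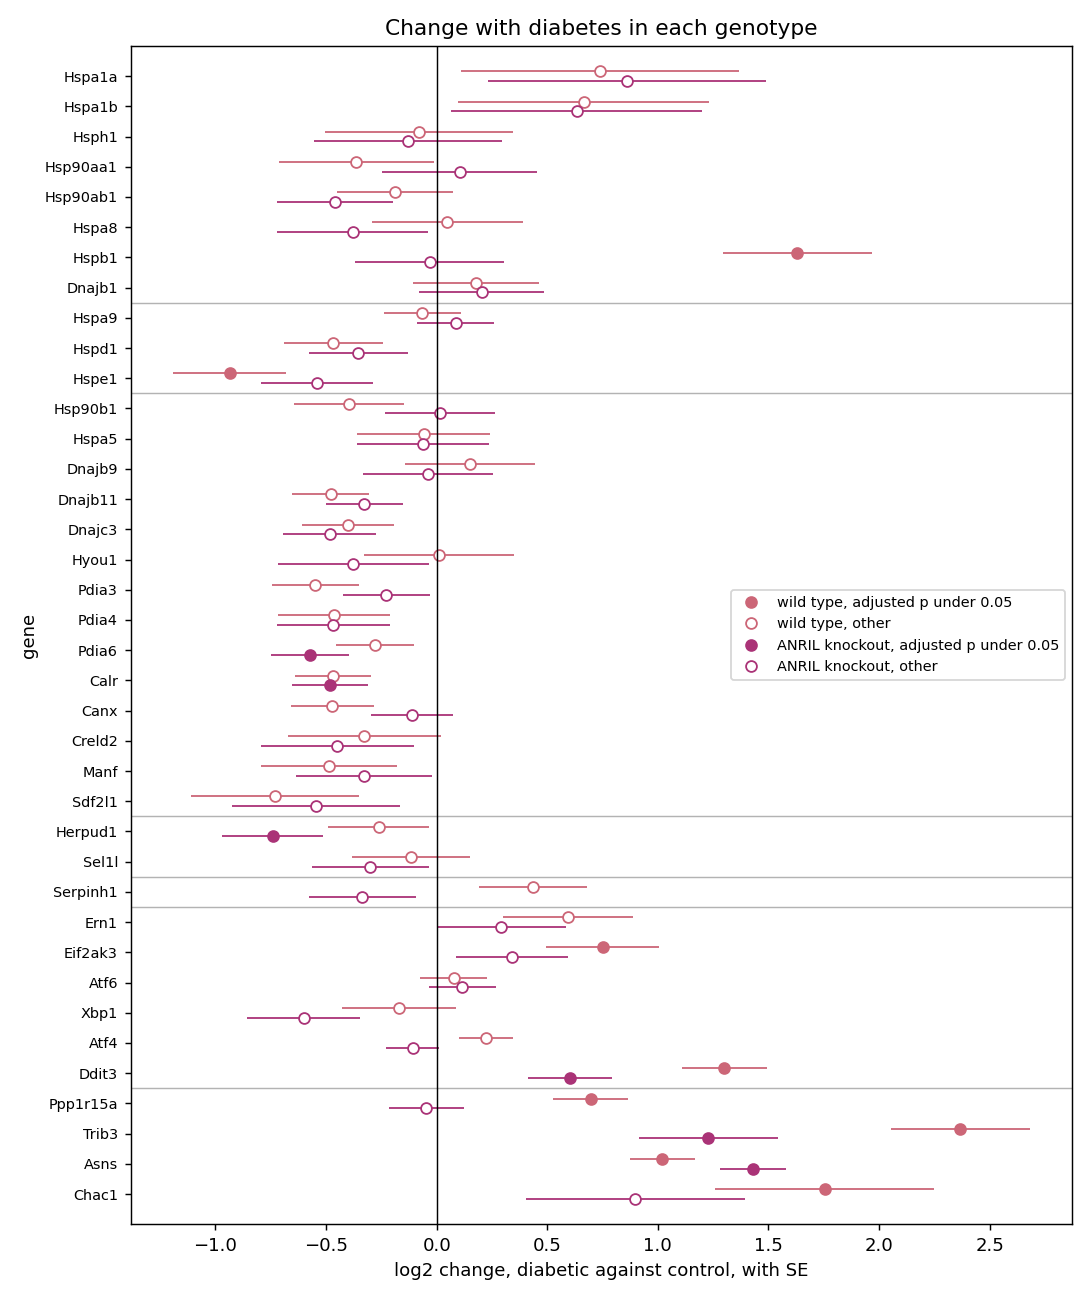
Points give the log2 change of diabetic against control mice in wild type and knockout, bars give the standard error, and filled points are called at an adjusted p under 0.05. Most ER folding genes lie left of 0 in both genotypes, and Hspb1 and Ppp1r15a are filled in wild type and open in knockout, a difference between genotypes that was not called (adjusted p = 0.110 and 0.159).

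The cytosolic heat shock genes varied widely between mice of 1 group. Only Hspb1 was called in the averaged effect, and the class median log2 change was 0.04, which became 0.19 without KO-C 3 and -0.10 without KO-D 1. Hspa1a, an inducible HSP70, had 3.59, 3.17 and 13.1 CPM in WT-C mice, 6.59, 12.5 and 8.66 in WT-D mice, 13.1, 4.57 and 14.8 in KO-C mice and 46.8, 10.5 and 10.9 in KO-D mice. Hspa1b, its near-identical neighbour, had 11.2, 6.70 and 29.7 CPM in WT-C mice, 14.3, 28.6 and 22.0 in WT-D mice, 35.6, 12.5 and 45.8 in KO-C mice and 82.2, 32.4 and 28.5 in KO-D mice. Both were highest in KO-D 1, and their groups overlapped. Of all stretches of 100 bases in the Hspa1a transcript 48.6% are found in another gene, most of them in Hspa1b, so the split of reads between the pair is uncertain.

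Hspa1a and Hspa1b were called higher in KO-D than in WT-C, with log2 changes of 1.70 ± 0.63 (adjusted p = 0.0452) and 1.69 ± 0.57 (adjusted p = 0.0306). Without KO-D 1 they were 0.99 (adjusted p = 0.188) and 1.21 (adjusted p = 0.119), neither called.

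Hspb1 (chr5:135887919-135889563), the small heat shock protein HSP27 that guards actin filaments, had 5.58, 3.73 and 4.65 CPM in WT-C and 13.8, 13.2 and 16.6 CPM in WT-D. It had 13.1, 6.41 and 15.7 CPM in KO-C and 17.0, 10.3 and 7.02 CPM in KO-D. All 9 mice of the other groups lay above WT-C, and KO-C and KO-D overlapped. The log2 change with diabetes was 1.63 ± 0.34 in wild type (adjusted p = 0.00525) and -0.03 ± 0.34 in knockout (adjusted p = 0.953). A pseudogene, Hsp25-ps1, shares 42.7% of the 100-base stretches of its transcript.

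Hspa8, the constitutive HSP70 and the gene with the highest level per kilobase of exon among the 38 (518 CPM per kb), had 1150.3, 1716 and 2891 CPM in WT-C and 1376, 1886 and 2433 in WT-D. It had 2439.7, 2417 and 3841 CPM in KO-C and 2643, 1779.5 and 2187 in KO-D. The groups overlapped. Transcripts of other genes share 62.8% of the 100-base stretches of the Hspa8 transcript, 47.5% of Hsp90aa1, 26.9% of Hspd1 and 20.4% of Hspe1, so their levels are uncertain to that extent. Hsp90aa1, Hsp90ab1, Hsph1 and Dnajb1, which complete the class, were not called in any comparison, and their highest library was 2.62 to 4.73 times their lowest.

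Of the mitochondrial chaperones, Hspe1 (chr1:55088132-55091307), the HSP10 lid of the HSP60 chamber, had 332, 170.4 and 196 CPM in WT-C and 88.9, 114 and 156 CPM in WT-D. It had 163, 164 and 204 CPM in KO-C and 147, 101 and 119 CPM in KO-D. The 6 diabetic mice lay below the 6 controls, with a log2 change of -0.94 ± 0.25 in wild type (adjusted p = 0.0200) and -0.54 ± 0.25 in knockout (adjusted p = 0.122). On CPM with no scaling they overlapped, and the averaged log2 change was -0.37 (adjusted p = 0.0323). The wild-type call of Hspe1 was lost without WT-C 1, WT-D 1 or WT-D 2 (adjusted p up to 0.107) and with only the groups compared (adjusted p = 0.0536), and its averaged call held in all 12 fits that each left out 1 library. Hspd1, the HSP60 chamber itself and the highest of the class per kilobase of exon (201 CPM per kb), had 519, 581 and 626 CPM in WT-C mice, 369.6, 395 and 489 in WT-D mice, 534, 524 and 852 in KO-C mice and 628, 391 and 464 in KO-D mice. Its averaged log2 change was -0.41 ± 0.16 (adjusted p = 0.0504). Both DESeq2 and the fit with the replicate number as a block called Hspd1 lower in the averaged effect. Hspa9, the mitochondrial HSP70, ranged from 603 to 871 CPM and was not called.

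Serpinh1, the collagen chaperone HSP47, had 47.8, 33.9 and 42.4 CPM in WT-C mice, 56.8, 40.5 and 74.0 in WT-D mice, 48.7, 38.3 and 67.4 in KO-C mice and 45.6, 42.7 and 32.1 in KO-D mice. The groups overlapped and it was not called, with log2 changes of 0.44 in wild type (adjusted p = 0.208) and -0.34 in knockout (adjusted p = 0.319). On CPM with no scaling WT-D lay above WT-C without overlap. Serpinh1 was then called higher in wild type (0.82, adjusted p = 0.0152), where the median of all tested genes was itself 0.42. Of 10 collagen genes, its clients, 10 were called higher in the averaged effect, beside 21.9% of all tested genes, with a median log2 change of 1.56.

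**Figure D4:**
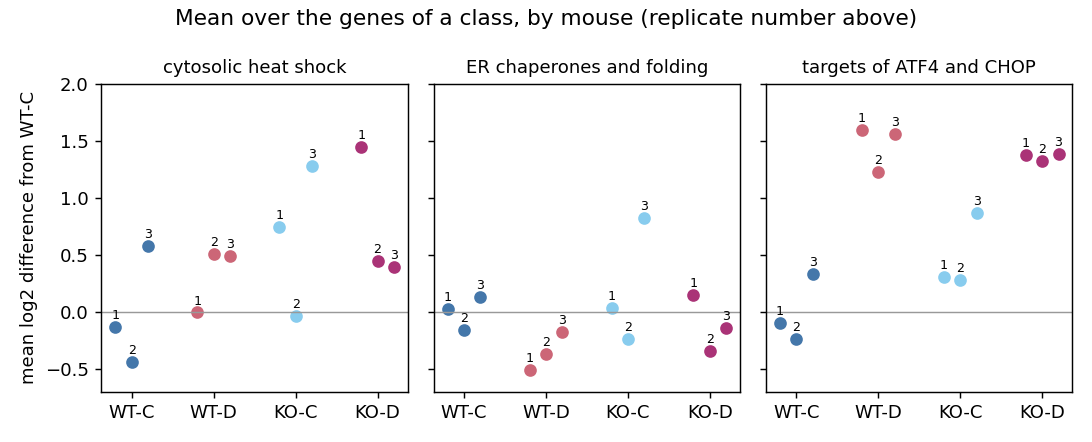
Each point is the mean, over the genes of a class, of the log2 difference of 1 mouse from the WT-C mean, with its replicate number above. KO-C 3 has the highest point for ER folding (0.82) and KO-D 1 for cytosolic heat shock (1.44), and the targets of ATF4 and CHOP lie at 1.22 or higher in all 6 diabetic mice.

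By comparison, WT-D against WT-C, which asks what diabetes changes in wild-type kidney, had 7 of 38 called higher (Hspb1, Eif2ak3, Ddit3, Ppp1r15a, Trib3, Asns and Chac1) and Hspe1 lower, beside 13.7% and 8.22% of all tested genes. Without WT-C 1 the calls fell from 8 to 4 and without WT-D 1 to 5. The count called lower moved with the setting, from 0 with only the groups compared to 3 under RLE scaling, 2 of them ER folding genes, and 5 by DESeq2, which added Dnajb11, Pdia3, Calr and Canx. KO-D against KO-C, the same question without ANRIL, had 3 higher (Ddit3, Trib3 and Asns) and 3 lower (Pdia6, Calr and Herpud1), beside 13.6% and 17.4%. Without KO-C 3 there were 5 higher, Eif2ak3 and Chac1 added, and 0 lower. The call count was 3 without KO-C 1 and without KO-D 2, and 2 without KO-D 3.

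Whether diabetes acted differently in the 2 genotypes was tested directly, and limma called 0 of 38 genes and 0% of all tested genes. An unadjusted p under 0.05 was found for 5 of 38 (Hspb1, Serpinh1, Ddit3, Ppp1r15a and Trib3) and for 2688 genes in all. The smallest adjusted p among the 38 was 0.110, for Hspb1, with a difference of -1.66 and a 95% interval from -2.76 to -0.57. edgeR called 0 genes, and DESeq2 called 685, of which Hspb1 was the only 1 of the 38. The intervals of Trib3 (-2.16 to -0.12) and Ddit3 (-1.32 to -0.07) also lay below 0 before adjustment.

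KO-C against WT-C, which asks what the deletion changes without diabetes, had 0 of 38 called and 0% of all tested genes. An unadjusted p under 0.05 was found for 5 of 38 and for 1546 genes in all, edgeR called 0 genes and DESeq2 called 9, none of the 38. The log2 change lay above 0 for 35 of 38, with a median of 0.34 against 0.03 over all tested genes, and with a median of 0.06 without KO-C 3.

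KO-D against WT-C had 8 of 38 called higher and 2 lower, beside 19.4% and 20.7% of all tested genes. Hspa1a, Hspa1b, Hspb1, Eif2ak3, Ddit3, Trib3, Asns and Chac1 were higher, and Hspe1 and Pdia6 lower. Without KO-D 1 the calls of Hspa1a, Hspa1b, Hspb1 and Pdia6 were lost (adjusted p = 0.188, 0.119, 0.0543 and 0.0672), so that 0 cytosolic heat shock and 0 ER folding genes were left. The count of calls fell from 10 to 6 without KO-D 1 or WT-C 2 and to 5 without WT-C 1. KO-D against WT-D had 1 call, Asns, higher by 0.59 ± 0.15 (adjusted p = 0.0381), beside 0.103% higher and 5.43% lower of all tested genes. This call was lost in 6 of 12 fits that each left out 1 library, among them the fit without KO-D 1. Most of these comparisons share groups, and the WT-C mice serve both WT-D against WT-C and KO-D against WT-C. However, WT-D against WT-C and KO-D against KO-C share no mouse. Neither do KO-C against WT-C and KO-D against WT-D.

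The other genes of these pathways, outside the 38, were counted in the averaged effect, where 21.9% of all tested genes were called higher and 21.6% lower. Of 32 tested genes of the integrated stress response, a list that holds kinases as well as the ATF4 arm, 14 were higher and 3 lower. The median log2 change was 0.36. Shmt2 (-1.07), Psph (-0.58) and Sars (-0.31) were those called lower. Atf3, a transcription factor induced by ATF4, rose by 2.99 ± 0.41 in wild type (adjusted p = 5.5e-04) and by 3.58 ± 0.41 in knockout (adjusted p = 1.0e-04). In the averaged effect Stc2, a secreted glycoprotein, rose by 2.40 ± 0.18 (adjusted p = 1.5e-06), Mthfd2, a mitochondrial folate enzyme, by 1.57 ± 0.13 (adjusted p = 3.6e-06) and Atf5, a transcription factor, by 1.51 ± 0.13 (adjusted p = 6.2e-06).

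Of 38 other cytosolic heat shock genes 2 were higher and 15 lower. Among those that fell were Fkbp4 (-0.67 ± 0.12), Cct5 (-0.54 ± 0.10) and Cdc37 (-0.59 ± 0.12). Hspb8, a small heat shock protein, rose, with 3.15 ± 0.461 CPM in WT-C mice, 15.6 ± 2.20 in WT-D mice, 4.21 ± 0.992 in KO-C mice and 15.7 ± 3.07 in KO-D mice (mean ± SD, n = 3). Of 25 other ER folding genes 5 were higher and 10 lower, Sil1, Sdf2, Fkbp2 and Erp29 among those that fell. Of 15 other genes of ER-associated degradation 0 were higher and 8 lower, and of 13 of mitochondrial protein quality 0 and 9, with Clpp, a matrix protease, at -1.05 ± 0.14. Of 7 other regulators of the unfolded protein response 0 were higher and 1, Atf6b, lower.

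Cell markers moved with diabetes too. Of 5 proximal tubule markers 4 were called lower in the averaged effect and in KO-D mice against KO-C, and 0 in WT-D mice against WT-C. The shares of all tested genes called lower were 21.6%, 17.4% and 8.22%. Proximal tubule sums were 2837 to 4759 CPM in WT-C mice, 2309 to 3047 in WT-D mice, 4408 to 5983 in KO-C mice and 1500.3 to 2752 in KO-D mice. Summed markers of fibroblast and mesangium were 19.9 to 50.3 CPM in WT-C mice, 99.5 to 145 in WT-D mice, 24.6 to 33.6 in KO-C mice and 50.7 to 88.7 in KO-D mice. In the averaged effect 2 of 2 markers of distal tubule, 3 of 3 of podocyte, 3 of 3 of endothelium, 3 of 3 of fibroblast and mesangium, 3 of 4 of macrophage, 4 of 4 of T cell and 2 of 2 of tubular injury were called higher. No marker of thick limb, collecting duct, inner medulla or B and plasma cell (3 of 5 tested) was called in the averaged effect. Of 12 immediate early genes, which can rise within minutes of tissue handling, 8 were called higher and 0 lower in the averaged effect. In KO-D mice against KO-C 5 were higher and 2 lower, beside 13.6% and 17.4% of all tested genes. Their sums were 64.8 to 76.2 CPM in WT-C mice, 122 to 154 in WT-D mice, 70.8 to 108 in KO-C mice and 111 to 175 in KO-D mice. The part of cell makeup and of handling in the changes of the 38 genes was not tested.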

How the data were processed

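Renal cortex RNA of 12 mice was sequenced from non-stranded TruSeq libraries. The submitters' processing notes name STAR 2.7.3a, R 3.6.1 and edgeR 3.28.0 with the mm10 build. The authors deposited CPM per gene, with each library summing to 1000000. Since 1 read is the smallest value above 0 of a library, division by that value gave back reads, and 100% of values came out whole within 0.01. A second deposited table holds the authors' own fold changes and p-values and was not used here.

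Genes that passed filterByExpr (a minimum count of 10, and of 15 in total) were tested on log2(CPM + 0.1), with limma 3.58.1 (lmFit and trended eBayes), following TMM scaling (edgeR 4.0.16, R 4.3.3), with 4 group means over all 12 mice and Benjamini-Hochberg adjustment over 18461 genes. Values are not corrected for gene length except where given per kb of exon (GENCODE M21, in which all 38 genes had the same position). Alternatives were other scalings, pseudocounts and filters, edgeR and DESeq2 1.42.0 on recovered reads, a replicate block, and each library left out. The 38 genes and all lists were chosen with earlier results of these data known. Per-mouse values are given for genes called in any of 7 comparisons (17 of 38) and for the highest gene of each class, and up to 4 called genes with the smallest p are named per list. The labels state 3 biological replicates per group.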

Additional observations from a re-analysis of the deposited data

How the results depend on the processing

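Counts of calls here are for the chosen heat shock and ER stress genes unless stated otherwise. Of 40 called values, 19 kept their call in every fit that left out 1 library. Counts of called genes ranged over those fits from 4 to 11 for WT-D against WT-C, from 2 to 6 for KO-D against KO-C, from 5 to 10 for KO-D against WT-C, from 0 to 1 for KO-D against WT-D and from 9 to 16 for the averaged effect. With no scaling, which raised the median log2 change of all genes by 0.37 in WT-D against WT-C, by 0.33 in KO-D against KO-C, by 0.50 in KO-D against WT-C and by 0.35 in the averaged effect, the counts were 3 for KO-D against KO-C, 19 for KO-D against WT-C (19 higher, 0 lower) and 0 for KO-D against WT-D. The averaged split was then 15 higher and 1 lower. Pdia6 in KO-D against WT-C changed sign to 0.055 (adjusted p = 0.814). The single call of KO-D against WT-D, Asns, was lost (0 calls) with no filter on low values and with only the groups compared. For the difference between genotypes DESeq2 called 685 genes in all, of which only Hspb1 was among the chosen heat shock and ER stress genes. The cause of these changes was not tested.

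The replicate block gave 0 calls for KO-D against WT-D and kept 37 of 40 called values. It added Dnajb11 in WT-D against WT-C, Xbp1 in KO-D against KO-C, and Hspd1, Sdf2l1 and Xbp1 in the averaged effect. Libraries with the same replicate number correlated from -0.35 to 0.29 (mean -0.04), and 1 of 12 correlated best with its own number. The numbers thus gave no sign of pairing, which so few mice per group cannot exclude. Genes at few reads (Trib3, 11 reads, and Chac1, 7 reads, at the lowest) are limited by depth.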
